A study of Mus musculus with 4 samples.

Results

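The Tal1 and Gata1 libraries were compared at 8122 places on chromosomes 1 to 19 of the mouse assembly mm8, of 9724 places in the series when the sites of Ldb1 and of all chromosomes are included. A place was made from the authors' called sites of either protein, 5315 of Tal1 and 5620 of Gata1, by chaining sites whose centres lay under 200 bp apart. Of the places, 2712 held sites of both proteins, 2507 held a Tal1 site only and 2903 a Gata1 site only. The study asked where complexes built on Ldb1 sit during erythroid gene activation. It used chromatin immunoprecipitation and sequencing (ChIP-seq) of freshly isolated, formaldehyde-fixed mouse cells labelled total bone marrow, with antibodies against Scl/Tal1 (Tal1 here), Gata1, Ldb1 and control IgG. No genotype, strain, age or treatment is given in the labels, and each antibody has 1 library. With 1 library a side there is no replicate check, no test was made, and every interval covers counting error only. Amplified tags carried no molecular identifier, so they do not count separate molecules.

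Tal1 is a basic helix-loop-helix factor. It pairs with an E-protein such as Tcf3 and binds E-box elements. Gata1 is a zinc finger factor that binds GATA elements and is needed for red cell and megakaryocyte maturation. In erythroid cells both can sit in one complex, in which the adaptor Lmo2 links Tal1 and Gata1 to Ldb1. Ldb1 does not bind DNA itself and can join distant complexes into loops. Gata1 also acts in mast cells and eosinophils, and Tal1 acts with Gata2 in early progenitors. Total marrow holds all of these cells together with many that express neither protein. Fewer cells with a bound site and less protein at the site in each cell cannot be told apart in such a sample. Erythroid marker genes were not checked at the places, since a gene annotation of mm8 was not used here.

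The level of a library at a place was the number of its tags, 1 per position and strand, within 250 bp of a site centre, per 1000000 such tags on the 19 chromosomes (RPM below). The Tal1 library had 3477438 of these tags and the Gata1 library 6690786, so 1 tag was worth 0.288 RPM of Tal1 and 0.149 RPM of Gata1. The places held 4.68% of the Tal1 tags, 2.76% of Gata1, 3.40% of Ldb1 and 0.344% of IgG. The ratio at a place is log2 of Tal1 over Gata1, after 0.5 RPM was added to each. A positive value means more Tal1 by RPM. Each library has its own antibody, and the ratio cannot tell more bound protein from better enrichment by that antibody.

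The median place had more Tal1 than Gata1 by RPM. Its Tal1 level was 3.74 RPM (13 tags) and its Gata1 level 2.84 RPM (19 tags), and the median log2 ratio was 0.50, with quartiles of -0.45 and 1.20. Tal1 was at least 2-fold higher at 2581 places (31.8%, 95% Clopper-Pearson interval 30.8 to 32.8) and Gata1 at 1149 (14.1%, 13.4 to 14.9). These shares follow the scaling: with the median place set to 0 they were 14.9% toward Tal1 and 23.8% toward Gata1. In the flanks of the places, 2 to 5 kb away on both sides, the median log2 ratio was -0.11, and 3.08% of flanks passed 2-fold toward Tal1 and 7.17% toward Gata1. Flanks held a median of 12 Tal1 and 26 Gata1 tags. The exact counting interval of the ratio lay above equality at 35.7% of places and below it at 9.75%.

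Both proteins differed more in the spread of their levels than in the level of the middle place. Between the 5th and the 95th percentile of places Tal1 ran from 0.575 to 21.6 RPM and Gata1 from 0.897 to 8.67 RPM. The standard deviation across places of log2 RPM was 1.28 for Tal1 and 0.79 for Gata1. The Pearson correlation of both was 0.480 over the 8122 places, which share the 2 libraries. The ratio itself ran from -1.70 to 1.95 between the same percentiles.

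Which list held the place set the centre of the ratio, as it must, since the lists were called from the same tags. The median was 1.13 (quartiles 0.71 and 1.55) at places with a Tal1 site only, 0.86 (0.37 and 1.35) at places with both, and -0.77 (-1.34 and -0.32) at places with a Gata1 site only. Places of Tal1 alone still held a median of 1.79 RPM of Gata1, and their summed Gata1 tags stood at 5.01 times the density of their flanks. Places of Gata1 alone held 1.44 RPM of Tal1, 4.43 times the flanks. At places with both sites these rises were 22.4 times for Tal1 and 11.0 times for Gata1. Windows of places under 500 bp apart share tags, as at 14.4% of all places, and the part of this in the rises was not tested. The 3 Gata1-only places with the highest total lay 200, 240 and 220 bp from another place and held 116, 106 and 99 Tal1 tags. The ratio had 1 broad hump across places, with the both-site places bridging the 2 lists. At the places with both sites, 1146 (42.3%) passed 2-fold toward Tal1 and 16 (0.590%) toward Gata1, against 31.8% and 14.1% of all places. A called site of each protein bounds both levels there from below.

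**Figure D1:**
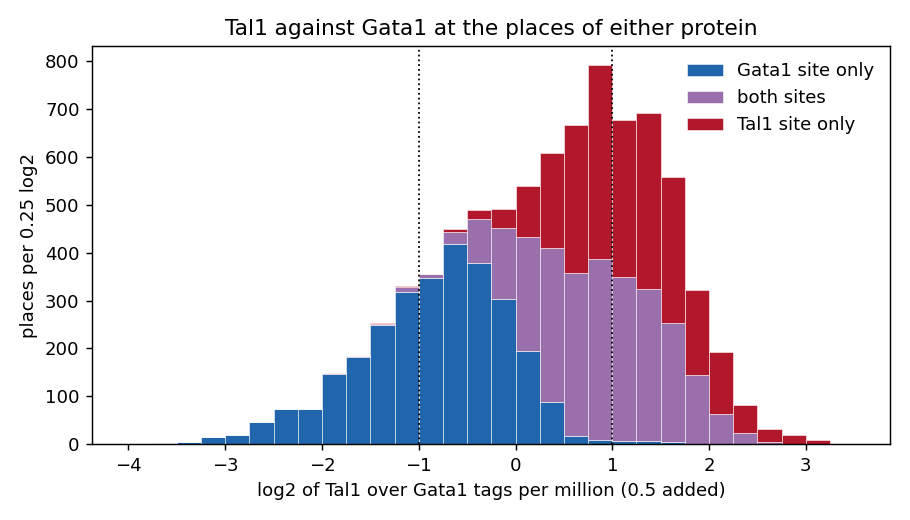
Number of places (vertical axis) by log2 of Tal1 over Gata1 RPM (horizontal axis, bins of 0.25), stacked by the list that called the place; dotted lines mark 2-fold. The Gata1-only places lie mostly left of 0 (median -0.77), the Tal1-only places right of it (1.13), and the places of both (0.86) reach across the middle.

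The balance went with the strength of the place. The places were split into 10 equal parts by the sum of the Tal1 and Gata1 levels. In the strongest part (20.9 to 104 RPM) the median place had 21.6 RPM of Tal1 (75 tags) and 8.22 RPM of Gata1 (55 tags), and the median log2 ratio was 1.45, with quartiles of 1.12 and 1.73. Tal1 was at least 2-fold higher at 667 of these 812 places, and Gata1 at 1. In the weakest part (1.64 to 3.40 RPM) the median place had 0.863 RPM of Tal1 (3 tags) and 2.09 RPM of Gata1 (14 tags), and the median ratio was -1.09. Gata1 was at least 2-fold higher at 477 of those 813 places. The medians of the parts between, from the second strongest down, were 1.10, 0.78, 0.51, 0.31, 0.31, 0.22, -0.13 and -0.42. Median Tal1 thus spanned a wider range of levels than median Gata1. The difference between the end medians was 2.54 on the log2 scale.

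**Figure D2:**
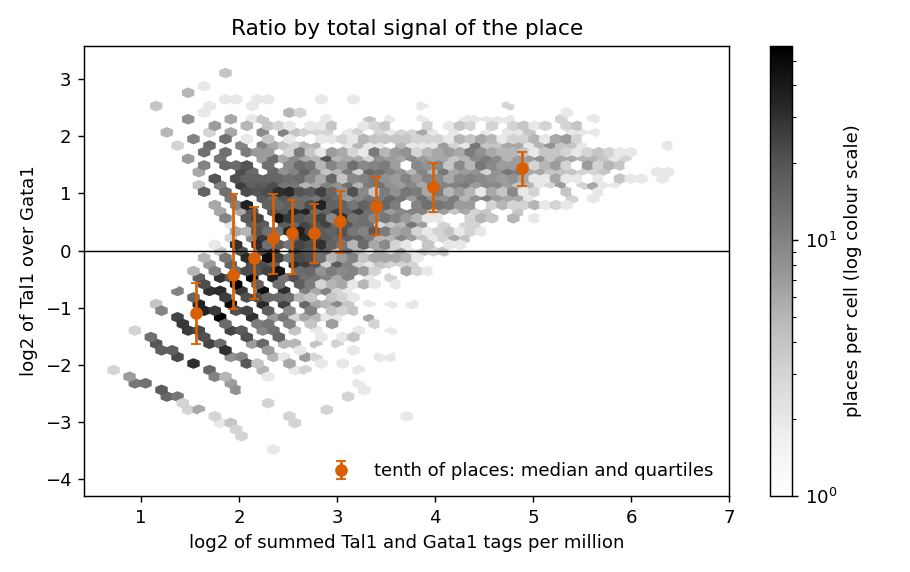
Log2 of Tal1 over Gata1 RPM (vertical axis) against log2 of the summed RPM (horizontal axis), 1 grey cell per group of places, darker where more places fall; orange points and bars give the median and quartiles of each of 10 equal parts. The medians go from -1.09 at the weak end to 1.45 at the strong end, and the spread narrows toward the strong end.

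The weak end of this order was bounded by the site caller. Its minimum was 8 tags for Tal1 and 11 for Gata1, which is 2.30 RPM and 1.64 RPM, so a place below the Tal1 minimum could enter only through Gata1. Of the weakest part, 82.8% of places had a Gata1 site only and none had both. The total also holds the same tags as the ratio. With the order taken from tags of 1 strand and the ratio from tags of the other, the difference between the end parts was 2.21 and 2.11. Among the 2712 places with both sites it was 1.18. Both minima apply to these places, so the caller still bounds their weak end. Their order also used the same tags as the ratio. Split into 5 equal parts, those places had medians of 0.35, 0.57, 0.81, 1.15 and 1.45 from weak to strong. In the weakest of the 5 Tal1 stood at 3.74 and Gata1 at 2.84 RPM, and in the strongest at 25.7 and 9.12 RPM. The Gata1-only places had medians of -1.35, -0.88, -0.59, -0.47 and -0.56 in the same order, and with flank tags taken off their summed tags gave -3.28, -1.56, -0.96, -0.79 and -0.61. The Tal1-only places had no such order, with medians of 1.39, 0.99, 0.98, 0.90 and 1.45. With flank tags taken off, their summed tags gave 2.40, 1.51, 1.34, 1.21 and 1.59, which is highest at the weak end.

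The places with both sites had the same order with local background taken off. With the tags expected from the flanks taken off, the summed tags of their 5 parts had log2 ratios of 0.46, 0.66, 0.87, 1.27 and 1.52 from weak to strong. Over their flanks, Tal1 stood 8.35 times higher in the weakest and 42.3 times in the strongest part, against 6.57 and 17.6 times for Gata1. IgG differed less, with a mean of 1.85 tags in the weakest and 2.44 in the strongest part. Duplicate tags were dropped here, which removed more of the Tal1 library (63.2% of tags distinct) than of Gata1 (89.0%). With duplicates kept, the difference between the end parts of all places was 2.87.

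Single places were measured with different precision along this order. In the strongest part the standard deviation of the ratio across places was 0.50, against 0.26 expected from tag counts alone. In the weakest part these were 1.30 and 1.15. Ratios made from plus-strand and minus-strand tags of the same places had a Pearson r of 0.770 (Spearman 0.784) over all 8122 places and of 0.691 (0.657) within the strongest part. Tags of opposite strands come from the same immunoprecipitation, so this is no replicate. Places of 1 protein alone had r of 0.402 (Tal1) and 0.423 (Gata1), and their spread was 0.64 and 0.77. The spread among strong places exceeded counting error. At weak places the added 0.5 RPM narrows the spread but not the value expected from counts, so there the 2 cannot be compared.

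Ldb1, which stands on neither side of the ratio, went with the Tal1 side. A Ldb1 site lay within 200 bp at 65.4% (63.5 to 67.2) of the 2581 places at least 2-fold toward Tal1 and at 9.05% (7.46 to 10.9) of the 1149 places at least 2-fold toward Gata1. Over all places the share was 44.3%. Places with a Ldb1 site had a median ratio of 0.95 (n = 3598) and those without -0.09 (n = 4524). Places with Ldb1 were also stronger, with a median total of 10.1 against 4.98 RPM. Within the 10 parts by total signal the difference between places with and without Ldb1 had a median of 0.39. In the 2 strongest parts there was no such difference, with medians of 1.44 with and 1.47 without a Ldb1 site in the first and 1.10 and 1.16 in the second. Only 62 and 133 places of these parts lacked a called Ldb1 site. They still held medians of 54 and 19 Ldb1 tags, against 68 and 35 at the places with a site. A missing site there is thus not an absence of Ldb1 tags. The lists also differed in these 2 parts. Tal1-only places made up 69.4% and 54.9% of those without a Ldb1 site, against 5.47% and 11.8% of those with one. The part of this mix in the like medians was not tested. The difference was positive within each list: the median was 0.97 with Ldb1 and 0.34 without at places of both, 1.29 and 1.03 at Tal1-only places, and -0.52 and -0.85 at Gata1-only places. IgG was lower at places with Ldb1 (mean of 2.03 tags) than without (2.66).

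The medians of the 2 proteins took different courses when the places were ordered by their Ldb1 level. From the lowest to the highest of 10 parts, median Ldb1 went from 0.458 to 15.6 RPM. Median Tal1 went from 1.73 to 21.0 RPM over the same parts, with a value above the one before it in each part. Median Gata1 lay between 2.24 and 2.54 RPM in the 6 lowest parts and was 7.92 RPM in the highest. Gata1-only places made up 65.6% of the lowest and 35.2% of the sixth lowest part, and Tal1-only places 31.5% and 40.2%. The caller's minimum bounds Gata1 alone at the former and Tal1 alone at the latter. The part of this in the flat Gata1 medians was not tested. The median ratio was -0.55 in the lowest part and 1.36 in the highest. In the highest part Tal1 was at least 2-fold higher at 605 of 812 places and Gata1 at none, which allows a share of up to 0.453% (upper Clopper-Pearson bound). The smaller set of places with both sites and no other place within 1000 bp had a difference of 1.08 between its end parts, against 1.91 for all places.

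**Figure D3:**
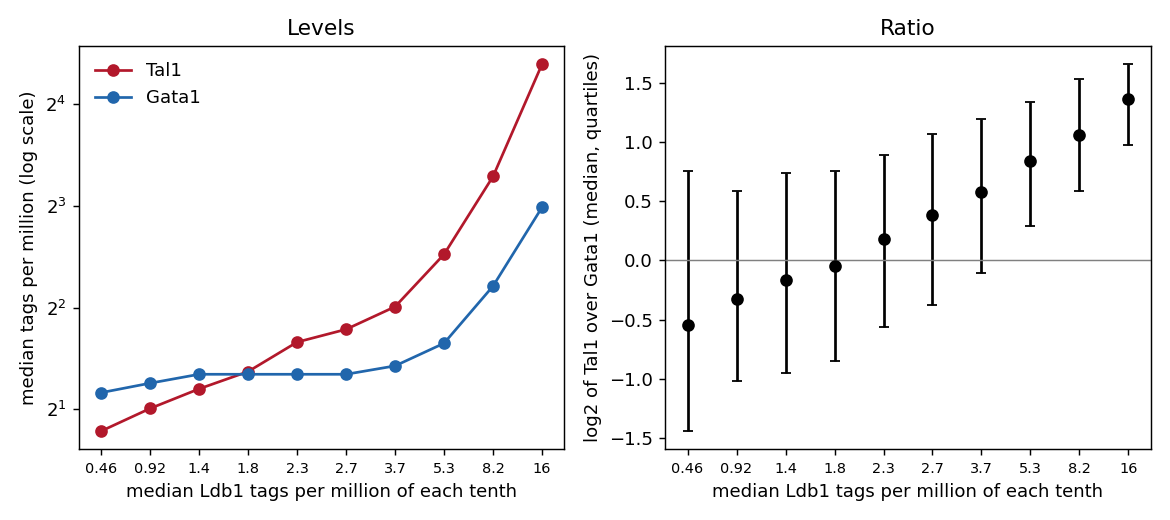
Left, median Tal1 and Gata1 RPM (log scale) and right, median and quartiles of log2 Tal1 over Gata1, for 10 equal parts of the places ordered by Ldb1 RPM (horizontal axis, median of each part). Tal1 goes from 1.73 to 21.0 RPM and Gata1 from 2.24 to 7.92 RPM, and the ratio from -0.55 to 1.36.

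The link to Ldb1 was uneven when 1 protein was held near a fixed level. Among the 1624 places with the most Gata1 (4.63 to 27.4 RPM), median Tal1 was 15.8 RPM with a Ldb1 site and 3.45 RPM without, a fold of 4.58. Their Gata1 medians were 7.02 and 5.83 RPM. In the next 3 of 5 equal parts by Gata1 the Tal1 fold was 2.20, 2.29 and 2.33. In the part with the least Gata1 (at most 1.94 RPM) it was 1.27, with 4.03 RPM of Tal1 with Ldb1 and 3.16 RPM without. In the converse order, among the 1624 places with the most Tal1 (8.34 to 80.2 RPM), median Gata1 was 6.13 RPM with Ldb1 and 4.56 RPM without, a fold of 1.34. In the next 3 parts by Tal1 the Gata1 fold was 1.17, 1.14 and 1.06, and in the last both medians were 2.69 RPM. That last part (at most 1.73 RPM) lay below the Tal1 minimum of the caller, 2.30 RPM, so its places entered through Gata1. In the part with the least Gata1, median Gata1 was 1.35 RPM, below the Gata1 minimum of 1.64 RPM, so most places entered through Tal1. The folds of these 2 end parts are therefore bounded by the caller. The caller also reached parts between them. In the parts by Gata1 with Tal1 folds of 2.29 and 2.33, median Tal1 without Ldb1 was 2.01 and 1.73 RPM. Both values lie below the Tal1 minimum, so most of those places entered through Gata1. The part by Tal1 with a Gata1 fold of 1.06 ran from 1.73 to 2.88 RPM, across that minimum. The share of the caller in these folds was not tested. The Ldb1 and Tal1 tag files share a format that the Gata1 file does not have, and the part of this in all the folds above was not tested.

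The tags behind each side sat at the middle of the places. At the places at least 2-fold toward Gata1, mean Gata1 density within 100 bp of the centre was 10.2 RPM per kb, 7.60 times the density 800 to 1000 bp away. Ldb1 there was 3.39 times, Tal1 1.79 times and IgG 1.27 times its density at that distance. At the places at least 2-fold toward Tal1, Tal1 was 22.9 times, Ldb1 14.9 times, Gata1 8.35 times and IgG 1.37 times. The Gata1 density at the centre was thus close on both sides, 10.2 against 11.0 RPM per kb, while that of Tal1 was 2.10 against 38.4. Places were put on a side by these same Tal1 and Gata1 tags; the Ldb1 and IgG values were not used for that.

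**Figure D4:**
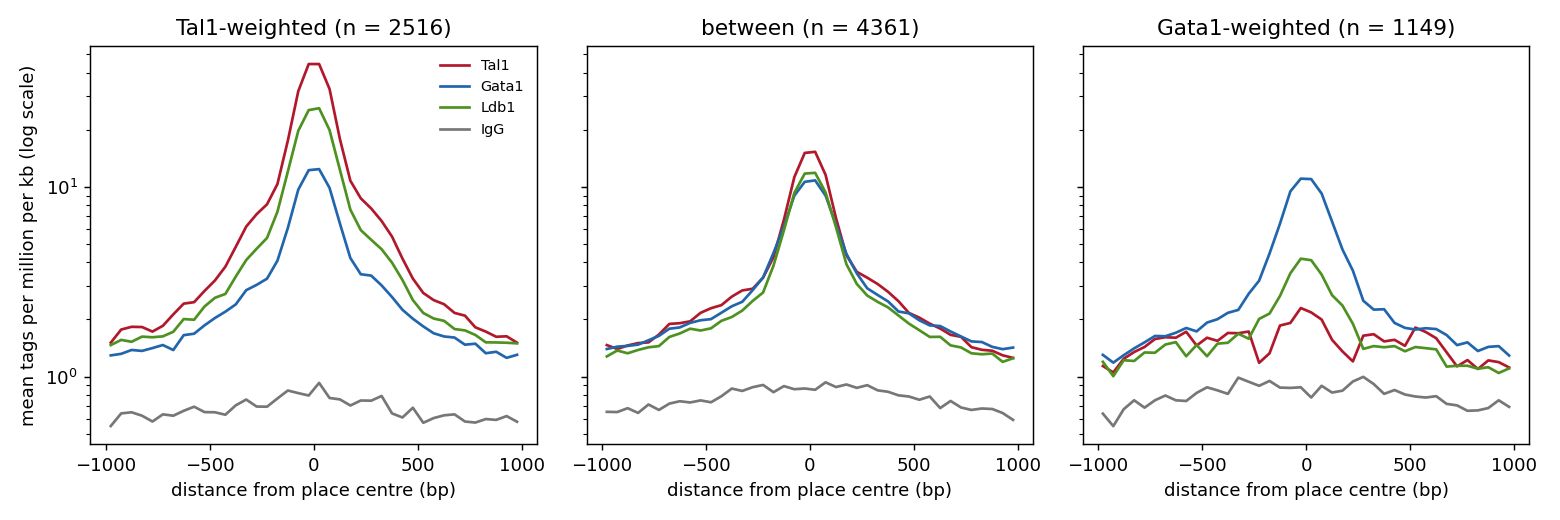
Mean tag density (RPM per kb, log scale) by distance from the place centre in bins of 50 bp, for the places at least 2-fold toward Tal1 (left), between (middle) and at least 2-fold toward Gata1 (right), leaving out places with over 2 sites. Gata1 peaks at a like height left and right, Tal1 and Ldb1 are high at left and low at right, and IgG is nearly flat.

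Within the places of both proteins, the ratio was higher where the Tal1 and the Gata1 centres lay close. The median ratio was 0.97 where the centres lay within 20 bp (1067 places), 0.79 at over 20 to 60 bp (856) and 0.81 beyond (789). Tal1 was at least 2-fold higher at 48.1% (45.0 to 51.1), 37.5% (34.2 to 40.8) and 39.5% (36.1 to 43.1) of them. A Ldb1 site was present at 87.5%, 83.4% and 75.4% of these places. The counted windows also differed, with median widths of 511, 541 and 601 bp, and the median totals were 13.2, 11.4 and 13.6 RPM. The part of width and total in the difference was not tested. Places with no IgG tag had a median ratio of 0.67 and those with 5 or more 0.41.

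Chromosomes differed little. The median ratio ran from 0.33 on chromosome 19 (332 places) to 0.67 on chromosome 18 (237 places), a range of 0.34, while the gap between the quartiles within a chromosome was 1.54 to 1.75. Grouping by chromosome took up 0.294% of the variance of the ratio across places, against 28.2% for the 10 parts by total signal and 23.0% for those by Ldb1. On all 19 chromosomes the stronger places had the higher median; the difference between the 2 equal parts of the whole set by total signal ran from 0.83 on chromosome 9 to 1.29 on chromosome 10. After the median of the place's part by total signal was taken off, the chromosome medians lay between -0.07 and 0.07. Chromosome 19 also had the largest share of Gata1-only places, 42.2%, and chromosome 6 the smallest, 31.6%. Over the 19 chromosomes that share and the median ratio had a Pearson r of -0.848 (Spearman -0.877), and both come from the same tags.

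**Figure D5:**
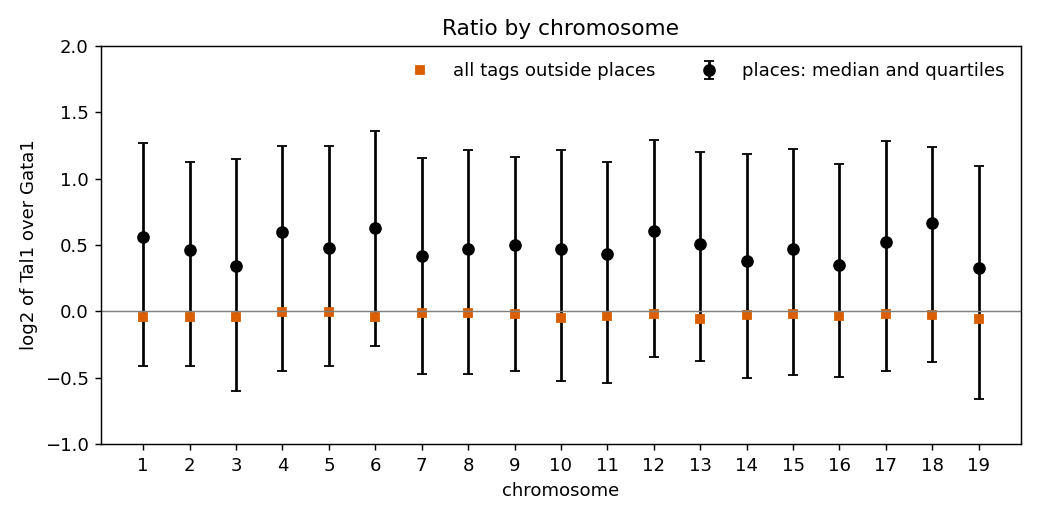
Median and quartiles of log2 Tal1 over Gata1 RPM of the places on each chromosome (black) and the same ratio for all tags outside places (orange). All 19 medians lie between 0.33 and 0.67, with quartiles far wider than the differences between chromosomes, and the tags outside places lie between -0.06 and 0.00.

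Most tags of both libraries lay outside the places, so the scaling itself holds the ratio of these tags near 0. On single chromosomes the tags outside places had log2 ratios of -0.06 to 0.00. Their ratio and the median ratio of the places had a Pearson r of 0.212 (Spearman 0.219) over the 19 chromosomes. On a finer scale, places were ordered by the ratio of the tags outside places within 500 kb. The 5 equal parts had medians of that background ratio from -0.17 to 0.06, and their places had median ratios of 0.45, 0.44, 0.56, 0.50 and 0.55 in that order. The balance of a place said little about that of its neighbour. For 2204 pairs of successive places 1 to 20 kb apart the Pearson r of their ratios was 0.050 (Spearman 0.055), and for 3097 pairs 20 to 200 kb apart it was 0.039 (0.039). Of the close pairs, 280 (12.7%) had both places at least 2-fold toward Tal1, 43 (1.95%) had both toward Gata1, and 171 (7.76%) had 1 of each. Pairs with both toward Tal1 made up 9.14% at 20 to 200 kb and 8.98% beyond. Pairs with both toward Gata1 made up 2.74% and 3.17%, and opposite pairs 8.27% and 8.39%. Places with another place within 20 kb had a median ratio of 0.62 and those without 0.30.

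The 5 places with the most signal all had more Tal1, a Ldb1 site, and at most 7 IgG tags. The first, on chromosome 15 from 38488051 to 38488251, had 279 Tal1 tags (80.2 RPM), 160 Gata1 tags (23.9 RPM) and 208 Ldb1 tags, a Tal1 over Gata1 fold of 3.36 (2.75 to 4.10). With duplicate tags kept its fold was 5.25. The next, on chromosome 16 from 32429511 to 32429551, had 250 and 183 tags and a fold of 2.63 (2.16 to 3.20), the lowest of the 5. The place on chromosome 7 from 24085951 to 24086011 had 261 and 111 tags and the highest fold, 4.52 (3.61 to 5.70), or 6.30 with duplicates. The others were chr7:80082231-80082791, with a fold of 3.08 (2.50 to 3.82), and chr11:102179851-102179911, with 3.58 (2.88 to 4.47). The intervals of the first and the last overlapped, whereas those of the second and the third did not. Another place lay 270 to 690 bp from each of the 5, and windows under 500 bp apart share tags. Of all places, 14.4% had such a neighbour.

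Few strong places went against the main direction. In the strongest part of 812, 7 had a ratio below 0, and 1 was at least 2-fold toward Gata1. That place, singled out after its values were seen, lay on chromosome 12 from 85662791 to 85662931, with 127 Gata1 tags (19.0 RPM) and 16 Tal1 tags (4.60 RPM), 14 Ldb1 tags and 2 IgG tags. Gata1 was 4.13 times Tal1 there (2.44 to 7.44), and sites of both proteins were called but none of Ldb1.

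The places furthest toward Tal1 by the lower bound of the interval were weak, with 1 exception. Of the 5, 4 had 13 Tal1 tags (3.74 RPM) and no Gata1 tag. Set against a floor of 3 Gata1 tags Tal1 was 8.34-fold higher, and the lower bound of the counting interval was 5.86-fold. In mm8 these were chr2:57240971-57241031, chr5:115753011-115753051, chr13:51738831-51738971 and chr17:25690151-25690211. The Ldb1 library had 14, 5, 3 and 3 tags there and IgG 1, 1, 5 and 2, and a Ldb1 site was called at the first alone. Their log2 ratio was 3.08 each, and with tags within 500 bp it was 3.18, 2.89, 2.04 and 2.51. The fifth lay in the second strongest of the 10 parts by total signal. On chromosome 11 from 113467451 to 113467551, 60 Tal1 tags (17.3 RPM) met 10 Gata1 tags (1.49 RPM), a fold of 11.5 (5.86 to 25.3), with 14 Ldb1 tags, a Ldb1 site and no IgG tag. Its Gata1 tags were few, and it stood alone, 29730 bp from the next place.

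The places furthest toward Gata1 were called in the Gata1 list alone. The first, on chromosome 12 from 56754171 to 56754411, had 48 Gata1 tags (7.17 RPM) and no Tal1 tag, also with duplicates kept. Set against a floor of 3 Tal1 tags Gata1 was 8.32-fold higher, and the lower bound of the counting interval was 6.51-fold. It had 3 Ldb1 and 4 IgG tags. The place on chromosome 5 from 111079871 to 111080551 had 97 Gata1 tags (14.5 RPM) and 3 Tal1 tags, a Gata1 over Tal1 fold of 16.8 with a wide interval of 5.58 to 82.9, 2 Ldb1 tags and 9 IgG tags. With duplicate tags kept it had 115 Gata1 and 11 Tal1 tags, and the fold was 7.67. At chr10:93077751-93078111 and chr11:80198911-80198951, 37 and 35 Gata1 tags met no Tal1 tag. Gata1 was 6.41-fold and 6.06-fold over the floor of 3 Tal1 tags, with lower bounds of 4.96-fold and 4.68-fold. The last differed from the other 4. On chromosome 7 from 6014271 to 6014311, 34 Gata1 tags and no Tal1 tag met 33 Ldb1 tags (7.56 RPM) and a called Ldb1 site, with 1 IgG tag, and the next place was 888300 bp away. Gata1 was 5.89-fold over the floor of 3 Tal1 tags there, with a lower bound of 4.54-fold.

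Places empty of 1 protein were rare. No Tal1 tag was found at 113 places, all of Gata1 only, with 11 to 48 Gata1 tags (median 16), and 3 of them had a Ldb1 site. No Gata1 tag was found at 15 places, all of Tal1 only, with 8 to 13 Tal1 tags, and 1 had a Ldb1 site. With a floor of 3 tags, an empty window still permits 0.863 RPM of Tal1 and 0.448 RPM of Gata1. At the other end, 3 places stood for the middle of the ratio with the tightest intervals. On chromosome 8 from 126874871 to 126875031, 78 Tal1 tags (22.4 RPM) and 113 Gata1 tags (16.9 RPM) gave a fold of 1.33 (0.982 to 1.79). The places at chr4:6264431-6264651 and chr13:24167271-24167511 had folds of 1.52 (1.11 to 2.08) and 1.51 (1.09 to 2.09). All 3 had sites of both proteins and of Ldb1, with 74, 67 and 92 Ldb1 tags.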

How the data were processed

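Aligned tags of the Tal1, Gata1, Ldb1 and IgG libraries were used as the authors deposited them, with positions on mm8 (from the submitters' processing notes). The aligner is not given in the sources used here. Sites were called per library with SISSRs 1.4 against IgG, per the file headers, with the deposited tag count per site used only for the upper part of each list. Per the file headers, fragments were put at 188 bp (Tal1) and 235 bp (Gata1). In Python 3.11.15 (scipy 1.17.1, numpy 2.4.6, pandas 2.3.3), tags with a distinct position and strand were kept, and a tag counted by its middle base. Ratio intervals are exact conditional (Clopper-Pearson) 95% intervals. A fold is given without the added 0.5 RPM. The counting code was tested on simulated data.

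Places named are the 5 with the highest total, the 5 furthest to each side by the near bound of the interval, and the 3 with the tightest interval within 0.1 of the median. The members and lists were chosen with earlier results of these data known. Planned motif searches and gene names were not run, since no mm8 genome or gene annotation was used here, and no sequence is shown. Alternatives covered duplicates, scaling, window, added value, chaining, background, depth, site threshold, IgG-rich and close places.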

Additional observations from a re-analysis of the deposited data

How the results depend on the processing

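Of 110 alternative values of the 7 summary results, 72 stayed within 1.5 times (shares) or within the binomial interval of the medians, 38 moved and none changed sign. The shares and the range of chromosome medians cannot change sign, and the median ratio was left out under centring. Of 168 alternative values for single places 162 stayed within the counting interval and 6 moved, none to the other side. Centring on the median place gave 14.9% of places toward Tal1 and 23.8% toward Gata1, against 31.8% and 14.1% as reported. The side with the larger share thus depends on the scaling.

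The median ratio was 0.61 with tags within 100 bp and 0.40 within 500 bp, 0.55 with 0.1 and 0.44 with 1 RPM added, 0.46 with centres under 500 bp chained, 0.55 with flank tags and 0.57 with IgG tags taken off, 0.85 in the upper 50% of each list, 0.42 with no other place within 1000 bp and 0.86 at places of both. The difference by total signal was 2.87 with duplicates, 2.73 and 2.17 with tags within 100 and 500 bp, 2.95 and 2.26 with 0.1 and 1 RPM added, 2.61 with centres under 100 bp chained, 2.84 with flank tags and 2.84 with IgG tags taken off, 2.33 with Gata1 thinned to the Tal1 depth, 2.72 in the upper 50% of each list, 2.63 without IgG-rich places and 2.66 with no other place within 1000 bp. Chosen after seeing the data, orders by 1 strand gave 2.21 and 2.11, and places of both 1.18. The difference by Ldb1 signal was 2.35 in the upper 50% of each list and 1.08 at lone places of both (chosen after seeing the data). The difference by Ldb1 site was 0.97 and 0.94 with tags within 100 and 500 bp, 1.11 and 0.94 with 0.1 and 1 RPM added, 1.11 with IgG tags taken off, 0.94 with Gata1 thinned, 1.16 in the upper 50% of each list, 1.10 with no other place within 1000 bp and 0.39 within parts by total signal (chosen after seeing the data). The cause of these moves was not tested. No paired analysis was possible because neither side holds more than 1 library, and none could be left out. Depth limits weak places: the median place of the weakest part had 3 Tal1 tags.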
